A study of Homo sapiens with 12 samples.

Results

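The 207 open reading frames (ORFs) described here lie on the human mitochondrial chromosome, among 149028 ORFs that the authors' ORF caller listed in the whole table. They were chosen by position alone, as every listed ORF on that chromosome, on either strand and of any type. ORFs of the table that share codons in 1 reading frame were reduced so that each codon was counted once, which kept 124826 ORFs, and all 207 mitochondrial ones were among them. Ribosome footprints came from HEK293 cells, an established human embryonic kidney line, whose lysates held cycloheximide and were separated on gradients into pooled monosome and pooled polysome fractions. The conditions were serum starvation (2 h without serum), amino acid starvation (1 h in EBSS with MEM vitamins, 10% serum and antibiotics) and log phase growth in DMEM with 10% serum and antibiotics. Each of the 6 groups held 2 libraries, called A and B in the table, which gives 6 monosome and 6 polysome libraries. No label says that the libraries of a group came from separate cultures, so p-values measure only the spread between these libraries.

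The mitochondrial chromosome encodes 13 proteins, all of them membrane subunits of respiratory chain complexes I, III and IV and of the ATP synthase (complex V). They are translated inside the organelle by mitochondrial ribosomes, which are smaller than the cytosolic ones and are not blocked by cycloheximide. Mitochondrial mRNAs have little or no sequence before the start codon, and the mitochondrial code reads AUA as methionine and UGA as tryptophan. Which genetic code the ORF caller used is not given in the sources used here. ND6 is the 1 protein gene on the other strand from the rest.

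By the positions of RefSeq genes, 186 of the 207 ORFs lay in the 13 protein genes, 20 lay in 13 of the 22 tRNA genes, and 0 lay in the 2 rRNA genes. The remaining ORF (8531 to 8572, plus strand) lay where the genes ATP8 and ATP6 overlap and was assigned to neither. Each ORF was on the strand of its gene. The table lists ORFs under annotated transcripts, and it holds 0 ORFs opposite to a mitochondrial gene. COX1, the catalytic subunit of cytochrome c oxidase, held 34 ORFs, and ND5, a complex I subunit, held 24. ND4 held 17, and CYTB, ND1 and ND6 held 16 each. COX2 and ND2 had 14 each, ATP6 had 12, COX3 had 11, ND3 had 5, ND4L had 4 and ATP8 had 3.

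The listed ORFs were short pieces of these genes. Their median length as listed was 33.0 nt, the shortest had 6 nt and the longest 576 nt. The 13 genes run from 207 nt (ATP8) to 1812 nt (ND5). Between 29.2% (ND3) and 89.4% (COX1) of a gene's length was covered by its ORFs. The caller typed 129 of the ORFs as orphan, 41 as iORF, 20 as ncRNA, 13 as Variant and 4 as Trunc, and none as a full coding sequence. Start codons were spread over 10 triplets, led by ATA (30 ORFs), AAG and ATC (29 each) and ATT (28), while ATG began 20. The caller's p-value was under 0.05 for 12 of the 207 and under 1e-4 for 0, the smallest being 0.00144 for an ORF of ND2 (5272 to 5316). The share of all listed ORFs under these thresholds is not given here, so the counts allow no comparison with the rest. For the ORF with the most footprints in each protein gene, the caller's p-value ran from 0.0802 (ND4) to 0.99997 (ND4L).

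Footprints of these ORFs made up several percent of each monosome library and well under a percent of each polysome library. They took 11.6% of library A and 7.04% of library B in serum-starved monosomes, 6.25 and 5.21% in amino acid-starved monosomes, and 4.56 and 7.07% in log phase monosomes. In polysomes they took 0.0818 and 0.289% of serum-starved, 0.115 and 0.340% of amino acid-starved and 0.0753 and 0.260% of log phase libraries. The lowest monosome library was above the highest polysome library in every condition. As these are shares of a library, more mitochondrial and fewer cytosolic footprints in a fraction cannot be told apart. The means were 6.95 ± 2.48% in monosome and 0.193 ± 0.116% in polysome libraries (SD, n = 6 each). With coding footprints as the denominator in place of all footprints the means were 21.1 and 0.324%, and with all overlapping ORFs summed they were 4.55 and 0.102%. Within a condition and letter, the monosome share was 142 (serum starvation), 54.5 (amino acid starvation) and 60.6 (log phase) times the polysome share for libraries A, and 24.4, 15.3 and 27.2 times for libraries B. With coding footprints as the denominator these ratios were 267, 143 and 174 for libraries A and 40.9, 18.9 and 34.8 for libraries B.

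**Figure D1:**
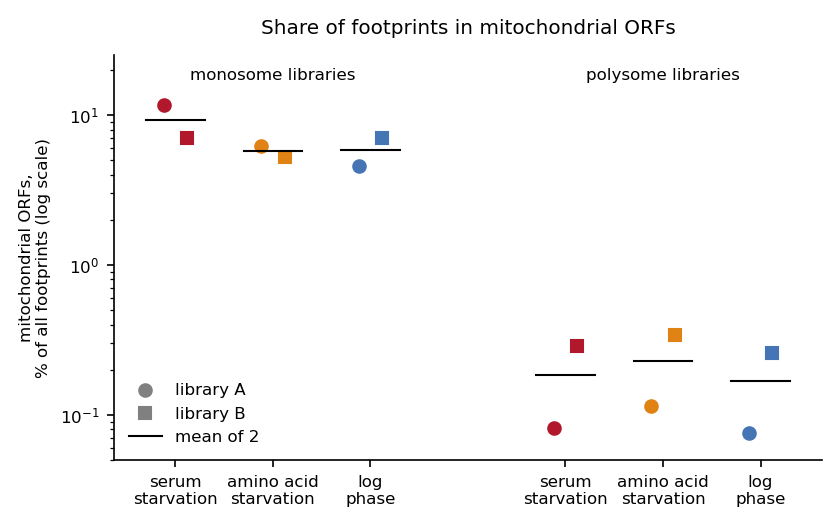
Percent of all footprints of a library that lay in mitochondrial ORFs, on a log axis, for the 6 monosome libraries (left) and the 6 polysome libraries (right). Circles are libraries A, squares libraries B and lines the mean of 2. Monosome libraries lie between 4.56 and 11.6%, polysome libraries between 0.0753 and 0.340%.

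The B libraries of polysomes held a larger mitochondrial share of all footprints than the A libraries in each of the 3 conditions. In monosomes A was higher in both starvations and lower in log phase by this denominator. Behind these shares stood 23252 to 59253 mitochondrial footprints per monosome library and 2840 to 16166 per polysome library. The libraries themselves held 354508 to 1204002 and 2477820.3 to 7683736 footprints. A pair of nuclear ORFs took over 5% of 1 or more libraries, and much more in some. Without it log phase monosome library A fell from 1204002 to 606861 footprints, and amino acid-starved monosome library A from 750891 to 367961. Amino acid-starved polysome library A fell from 2477820 to 2261658. Every share of all footprints given here for these libraries is lowered by the pair. Without this pair the shares of the monosome A libraries became 12.8% in amino acid starvation and 9.05% in log phase, and that in serum starvation stayed at 11.6%. Those of the monosome B libraries were then 5.26, 7.12 and 7.10%, so A was above B in each of the 3 conditions. The same held with coding footprints as the denominator (19.0% in A and 15.9% in B in log phase). The ratios of monosome over polysome share without the pair were 142 (serum starvation), 102 (amino acid starvation) and 120.2 (log phase) for libraries A, and 24.6, 15.5 and 27.4 for libraries B. Cell identity could be checked only in part: coding ORFs of VIM, HSPA8 and EEF1A1 were listed, KRT8 had 20 footprints in all, and KRT18 and the 5 markers of other tissues (PTPRC, HBB, ALB, COL1A2, CD3E) had no coding ORF.

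Gene by gene, all 13 protein genes were higher in monosomes than in polysomes over the mean of the 3 conditions. This was tested with edgeR's quasi-likelihood test on 4680 features, in which the summed ORFs of each mitochondrial gene stood beside the coding ORFs of nuclear genes, with Benjamini-Hochberg adjustment over all of them. Of all features tested, 18.2% were higher in monosomes by the same rule. The fit scales each library by TMM to its coding and mitochondrial footprints, so its ratios differ from those of the shares above. The median log2 ratio of monosome over polysome was 6.82 over the 13 genes and -0.16 over all features. In serum starvation 12 of the 13 were higher (background 5.41%), in amino acid starvation 12 (6.2%) and in log phase 12 (7.39%). The 1 gene that missed the threshold within each condition was ND6. With the library letter added as a replicate block, 13 of the 13 were called over the 3 conditions (background 25.3%), in serum starvation (15.4%), in amino acid starvation (16.1%) and in log phase (18%), ND6 included. No label ties the letters to replicates.

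The sizes of these differences ran over a wide range. ATP8, an ATP synthase subunit and the shortest of the genes, had the highest log2 ratio, 9.21 (SE 0.679, edgeR adjusted p = 8.47e-07). It held 0.911 and 0.263% of footprints in serum-starved, 0.519 and 0.204% in amino acid-starved and 0.240 and 0.636% in log phase monosomes. In polysomes it held 0.00104 and 0.00127%, 0.00184 and 0.00206%, and 0.00117 and 0.00196% in the same conditions. ND3, a short complex I subunit, followed at 9.04 (SE 0.634), with 156.2 to 742.9 footprints in each monosome library and only 7.2 to 17.0 in each polysome library. ATP6, the proton channel subunit of the ATP synthase, followed at 8.85 (SE 0.785).

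ATP6 took 3.63 and 0.815% of serum-starved, 2.19 and 0.627% of amino acid-starved and 1.40 and 1.28% of log phase monosome libraries. In polysomes it took 0.00432 and 0.00737%, 0.00938 and 0.0108%, and 0.00722 and 0.00763%. The 2 fractions did not overlap in any condition. Next came ND4L (7.89), ND2 (7.64), ND1 (6.90), COX2 (6.82), COX3 (6.70), ND4 (6.52) and CYTB (6.13), with standard errors of 0.468 to 0.684. COX2 carries the first electron acceptor of cytochrome c oxidase, and CYTB is the 1 mitochondrial subunit of complex III.

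COX1, ND5 and ND6 were at the low end. COX1 had a log2 ratio of 5.26 (SE 0.554, edgeR adjusted p = 1.09e-05). It held 1.84 and 2.35% of serum-starved, 1.00 and 1.87% of amino acid-starved and 0.742 and 1.59% of log phase monosome libraries, and 0.0365 and 0.106%, 0.0419 and 0.120%, and 0.0259 and 0.108% of the polysome libraries. The groups did not overlap, and in both fractions library B was above library A in each condition as a share of all footprints. The pair of nuclear ORFs described above lowers the A shares of amino acid-starved and log phase monosomes. Without the pair, COX1 held 7507.3 of 367961 footprints in amino acid-starved monosomes A and 8330.8 of 442181 in B. By that denominator A was above B there. In log phase monosomes COX1 held 8937.3 of 606861 in A and 12387.9 of 772842 in B, so B stayed above A. ND5, the longest of the genes and part of the proton-pumping arm of complex I, was at 4.25 (SE 0.513, edgeR adjusted p = 3.48e-05). Longer genes tended to have lower ratios (Spearman's rho across genes = -0.68 over 13 genes and -0.91 over the 12 without ND6). The genes share the libraries, so this is a description. ATP8, ND3 and ATP6 lay within a standard error of each other, as did ND1, COX2, COX3 and ND4.

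**Figure D2:**
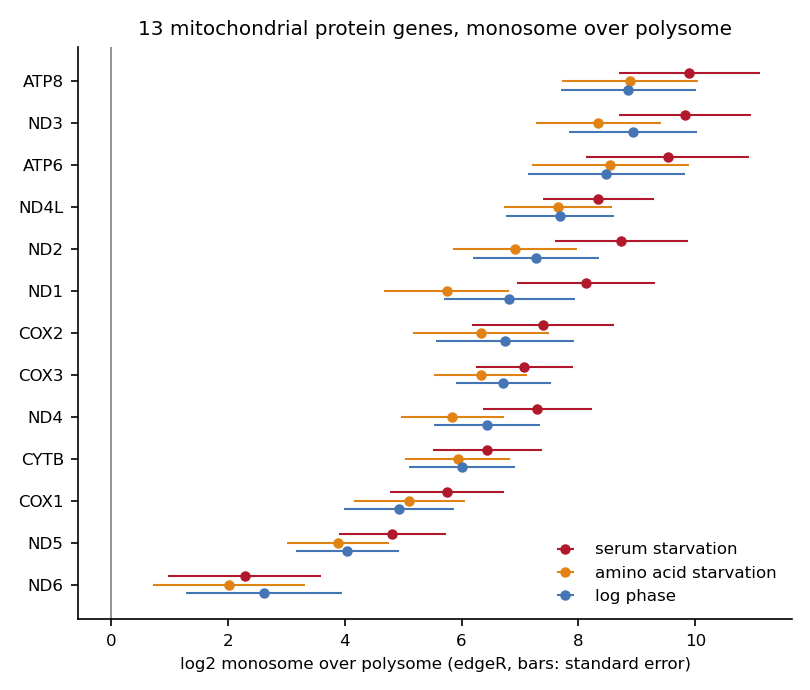
Log2 ratio of monosome over polysome for the 13 mitochondrial protein genes (rows, ordered by the mean of the 3 conditions) in serum starvation, amino acid starvation and log phase. Points are edgeR estimates and bars their standard errors. All points lie right of 0, from 2.02 (ND6, amino acid starvation) to 9.89 (ATP8, serum starvation).

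ND6, a complex I subunit encoded on the other strand, stood lowest at 2.31 (SE 0.760, edgeR adjusted p = 0.0264), and the call rested on single libraries. With 1 library left out it was at an adjusted p of 0.117 without the serum-starved monosome library B, 0.104 without the amino acid-starved monosome library B, 0.0740 without the log phase monosome library B and 0.0527 without the amino acid-starved polysome library A (edgeR). Scaling to library size in place of TMM gave an adjusted p of 0.0759. Within the conditions its edgeR log2 ratio was 2.29 (SE 1.31, adjusted p = 0.280) in serum starvation, 2.02 (SE 1.30, adjusted p = 0.328) in amino acid starvation and 2.62 (SE 1.33, adjusted p = 0.204) in log phase. With the replicate block the edgeR adjusted p of ND6 was 1.88e-08 over the 3 conditions (log2 2.84), 3.36e-04 in serum starvation (2.77), 0.00111 in amino acid starvation (2.43) and 3.45e-05 in log phase (3.31). ND6 held 0.0209 and 0.143% of serum-starved, 0.0128 and 0.0980% of amino acid-starved and 0.0148 and 0.0768% of log phase monosome libraries. In polysomes it held 0.00250 and 0.0582%, 0.00498 and 0.0376%, and 0.00207 and 0.0209%. Library B was above library A in all 6 groups, and within each letter and condition the monosome share was above the polysome share.

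The composition of the mitochondrial footprints also differed between the fractions. Complex IV genes held 45.7 ± 11.8% of them in monosome and 51.0 ± 4.14% in polysome libraries (SD, n = 6 each). Complex V genes held 29.5 ± 12.0% in monosome and 6.33 ± 3.46% in polysome libraries, with ranges of 15.3 to 43.3% and 2.99 to 11.2% that did not overlap. Complex I genes held 17.1 ± 1.31% in monosome and 32.5 ± 4.01% in polysome libraries, also without overlap (16.1 to 19.1% and 27.7 to 38.2%). CYTB held 6.26 ± 0.941% in monosome and 7.23 ± 1.88% in polysome libraries. These shares sum to a whole, so a larger share of 1 gene lowers those of the others, and no test was made of them.

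The larger complex I share of the polysome libraries lay in ND5 and ND6. ND5 took 3.21 to 5.02% of the mitochondrial footprints in monosome and 13.5 to 22.0% in polysome libraries. Among the other complex I genes, ND1, ND2, ND3 and ND4L had higher mean shares in monosomes (4.14, 2.36, 1.07 and 0.694%) than in polysomes (2.58, 0.851, 0.212 and 0.250%). ND4, in the same pumping arm as ND5, took 3.76 ± 0.456% in monosome and 3.09 ± 0.625% in polysome libraries (SD, n = 6 each). COX2 took 20.5 ± 3.24% in monosome and 11.4 ± 2.08% in polysome libraries, and COX3 1.89 ± 0.304 and 1.37 ± 0.326%.

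ND6 took 0.180 and 2.03% of the mitochondrial footprints in serum-starved, 0.205 and 1.88% in amino acid-starved and 0.325 and 1.09% in log phase monosome libraries A and B. In polysomes it took 3.06 and 20.1%, 4.34 and 11.1%, and 2.75 and 8.05%. Every polysome library was thus above every monosome library. The difference of the means, monosome minus polysome, was -7.28 percentage points. ND6 was singled out with earlier results of these data known, so these shares are a description.

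The A and B libraries of monosomes also differed from each other in composition. COX1 took 15.9, 16.0 and 16.3% of the mitochondrial footprints in the A libraries of serum-starved, amino acid-starved and log phase monosomes, and 33.4, 35.8 and 22.5% in the B libraries. ATP6 showed the opposite split, with 31.3, 35.0 and 30.7% in the A libraries and 11.6, 12.0 and 18.1% in the B libraries. In polysomes COX1 took 34.5 to 44.7% with no such split, while ATP6 took 5.28 to 9.59% in the A and 2.55 to 3.19% in the B libraries. What the letters stand for is not given in the labels.

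**Figure D3:**
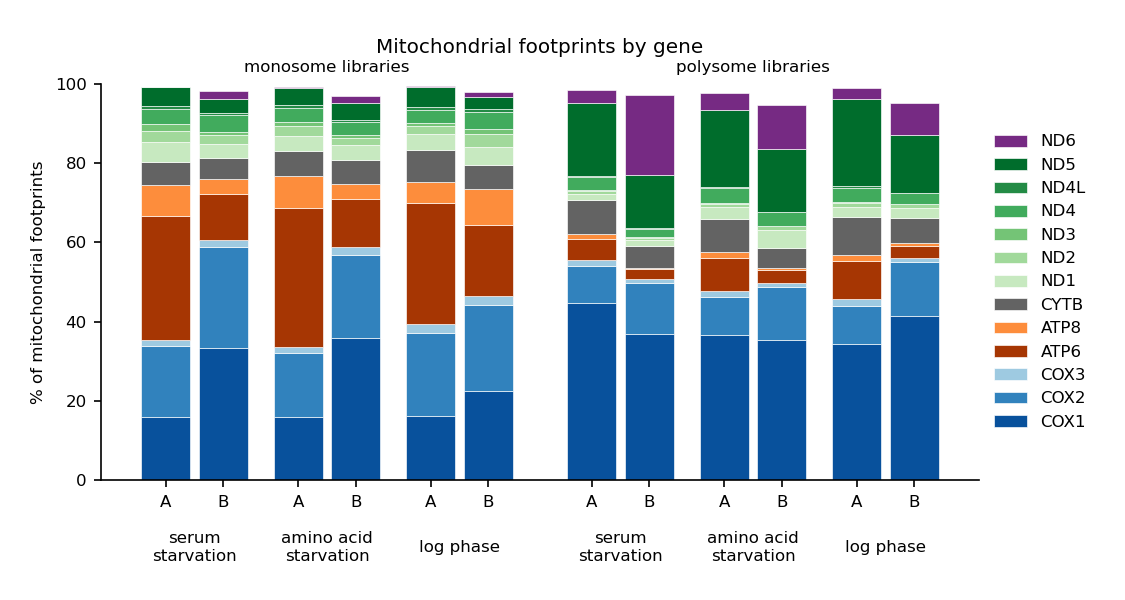
Percent of the mitochondrial footprints of each library in each of the 13 protein genes, with the 6 monosome libraries on the left and the 6 polysome libraries on the right. The part missing to 100% lay in tRNA gene ORFs and in the ORF shared by ATP8 and ATP6. ATP6 takes 11.6 to 35.0% in monosome and 2.55 to 9.59% in polysome libraries, ND5 3.21 to 5.02 and 13.5 to 22.0%.

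Per kilobase of gene, the mean share of all footprints in monosome libraries was highest for ATP6 (2.43 ± 1.63%), ATP8 (2.23 ± 1.35%), COX2 (2.06 ± 0.688%) and COX1 (1.02 ± 0.388%; SD, n = 6 libraries). The order of the first 3 depended on the letter. Counted from the highest of the 13 genes, ATP6 stood at place 1 in each A monosome library and at 3 to 4 in the B ones. COX2 stood at 2 to 3 in the A and 1 to 2 in the B ones, and ATP8 at 2 to 3 and 1 to 3. The means of the remaining 9 genes lay between 0.116% (ND6) and 0.371% (CYTB). In polysome libraries the highest means were those of COX1 (0.0474 ± 0.0276%), ND6 (0.0401 ± 0.0435%), COX2 (0.0349 ± 0.0250%) and ND5 (0.0170 ± 0.00844%), and ND3 had the lowest, 0.000852 ± 0.000301%. The place of ND6 differed between the letters too. Among the 13 genes ordered from the highest, it stood at place 13 in each A monosome library and at 6 to 12 in the B monosome libraries, and at 5 to 7 in the A and 1 to 3 in the B polysome libraries.

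No mitochondrial gene was called as changed between a starvation and log phase. In each of the 4 comparisons of a starvation with log phase within a fraction, and in the 2 comparisons of the monosome over polysome ratio, edgeR called 0 of the 13 genes and 0 of 4680 features (background 0%). At an unadjusted p under 0.05 it again gave 0 of the 13 in each of the 6. DESeq2 called 25 features in amino acid-starved monosomes, 76 in amino acid-starved polysomes and 26 for the ratio in amino acid starvation, and none of these was mitochondrial. For serum starvation DESeq2 called 0 features in each of the 3 comparisons. With the replicate block edgeR called 1.18% of features in amino acid-starved monosomes, 10.8% in amino acid-starved polysomes and 1.07% for the ratio in amino acid starvation. In serum starvation it called 0.0214% in monosomes, 0% in polysomes and 0.0214% for the ratio, and in each of the 6 comparisons again 0 of the 13 genes.

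The estimates left room for sizeable changes, because standard errors ran from 0.632 to 1.27 on the log2 scale within a fraction. In serum-starved monosomes all 13 genes had a positive log2 ratio to log phase, from 0.21 to 1.15 with a median of 0.70, where the median of all features was 0.01. In serum-starved polysomes 4 of the 13 were positive, with a median of -0.16. In amino acid-starved monosomes 8 were positive, with a median of 0.15, and in amino acid-starved polysomes all 13, with a median of 0.26. The 2 monosome comparisons share their log phase libraries, as do the 2 polysome ones. COX1, for example, was at 0.83 (SE 0.805) in serum-starved and 0.31 (SE 0.800) in amino acid-starved monosomes, relative to log phase monosomes.

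The footprints were concentrated on few ORFs, the 10 with the most footprints holding 46.7% of the 334806 mitochondrial footprints. Summed over the 12 libraries, a 27 nt ORF of ATP6 (8704 to 8730, start codon ATA, 177 nt into the gene and in its frame) held 27645 footprints, 40.7% of those in ATP6. Another ATP6 ORF begins 13 nt further on in another frame (8717 to 8743, AAG) and held 15631. In COX1 the ORF with the most footprints covers the first 18 nt of the gene (5904 to 5921, start codon ATG), and it held 23608, or 28.1% of COX1. The ATP6 ORF was above this COX1 ORF in 4 of the 12 libraries, the 3 monosome libraries A and log phase polysomes A, and below it in the other 8. In COX2 a 30 nt ORF 459 nt into the gene (8045 to 8074, ATT) held 20313, and in ATP8 a 24 nt ORF 129 nt into it (8495 to 8518, ATA) held 14814 of the 18520 in ATP8.

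**Figure D4:**
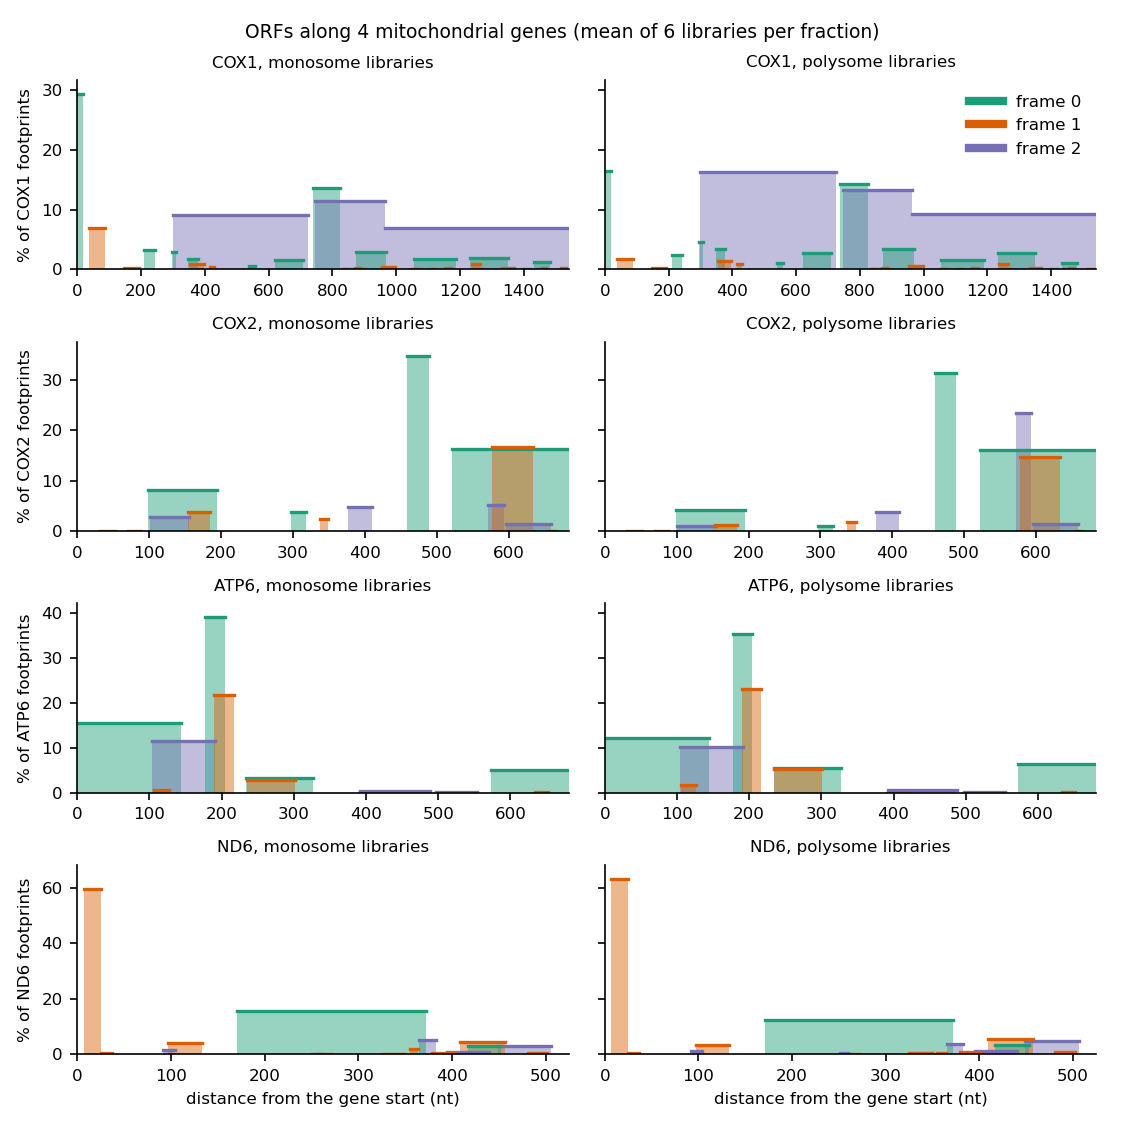
ORFs of COX1, COX2, ATP6 and ND6 by their distance from the gene start in nt (horizontal) and the percent of the gene's footprints that they held (vertical, mean of 6 libraries), in monosome (left) and polysome (right) libraries. Colours give the reading frame relative to the gene start, frame 0 being that of the annotated protein. The COX1 and ND6 profiles peak within 30 nt of the start, those of ATP6 and COX2 further in.

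In 8 of the 13 genes at least 1 listed ORF began within 30 nt of the gene start, and in COX1, ATP6, COX3 and ND4 an ATG ORF began at the first base. The COX1 start ORF held 17.7 and 36.7% of COX1 footprints in serum-starved, 18.4 and 47.1% in amino acid-starved and 19.5 and 36.2% in log phase monosome libraries A and B. In polysomes it held 17.6 and 23.1%, 16.8 and 17.0%, and 8.20 and 16.1%. The B monosome libraries were thus above the rest, and the A monosome libraries lay within the range of the polysome libraries. For ND4, a complex I subunit, the start ORF is at 10760 to 10807. It held 14.2 to 35.3% of the gene's footprints in monosome and 7.20 to 11.9% in polysome libraries, without overlap. ND2 went the other way, also without overlap. Its 2 ORFs beginning within 30 nt held 7.11 to 19.6% in monosome and 21.9 to 29.4% in polysome libraries. In ATP6, ATP8, COX3 and CYTB the ranges of the 2 fractions overlapped.

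The ND6 footprints lay mostly in 1 ORF near its start, of 18 nt (14649 to 14666, minus strand, start codon ATG, 7 nt into the gene and out of its frame). It held 6759 footprints, 77.7% of all those in ND6. In serum-starved, amino acid-starved and log phase monosomes it had 19.2 and 1061, 39.2 and 376.0, and 70.2 and 461.1 footprints in libraries A and B. In polysomes it had 70.3 and 2767, 76.9 and 1263, and 75.7 and 479.2. Most of its footprints thus came from the B libraries of both fractions. The ORFs beginning in the first 30 nt of ND6 held 77.3 to 88.4% of its footprints in the B monosome libraries and 25.9 to 41.6% in the A ones. In polysomes they held 64.0 to 85.1% in the B and 45.3 to 62.7% in the A libraries.

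**Figure D5:**
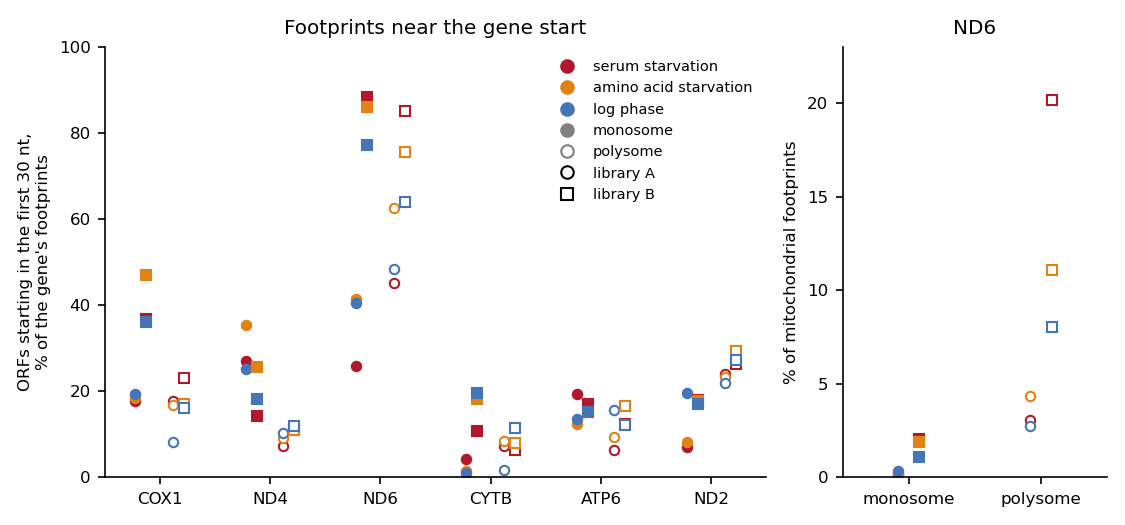
Left, percent of a gene's footprints in ORFs that begin in its first 30 nt, for 6 genes, with monosome libraries as filled and polysome libraries as open points. Right, percent of the mitochondrial footprints in ND6. Colours give the condition, circles libraries A and squares libraries B. ND6 takes 0.180 to 2.03% in monosome and 2.75 to 20.1% in polysome libraries.

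Of the 186 ORFs in protein genes, 64 were in the frame of the annotated protein, and these held 59.2% of the footprints, against 21.7 and 19.1% in the 2 other frames. The in-frame share was 61.2 ± 4.17% in monosome and 51.6 ± 5.33% in polysome libraries (SD, n = 6 each). This pooled share also depends on how the footprints were divided among the genes, which differed between the fractions. By gene, the mean was higher in polysomes for ND5 (48.6 and 62.2% in monosomes and polysomes), ND4L (81.0 and 86.6%) and ND3 (40.2 and 45.2%). It was lower in polysomes for each of the remaining genes, by little in COX3 and ND4. Over all libraries together the in-frame share ran from 10.1% in ND6 and 41.2% in ND3 to 81.6% in ND4L. COX1 had 59.9% in frame and 30.4% in frame 2, where it holds the longest ORF of the chromosome (576 nt, 6869 to 7444). Only 4 of the 64 in-frame ORFs ended at the annotated end of the gene, in COX2, ATP6, ND4L and ND5, and the other 60 ended before it. ATC (20), ATA (15) and ATT (13) began more of the in-frame ORFs than ATG (7).

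ORF by ORF, the direction was the same for each mitochondrial ORF that could be tested. Of the 207 ORFs, 181 passed the filter on low counts among 26466 ORFs tested, and the 26 that did not held 419.6 footprints in all. Of the 181, 177 were higher in monosomes (edgeR, adjusted p under 0.05, background 16.7%) and 0 were lower (background 22.8%). The median log2 ratio was 5.51 over the 181 and -0.48 over all ORFs tested. The filter asked for enough counts, relative to library size, in any 2 libraries. An ORF could thus pass through monosome libraries alone, the fraction where these ORFs are high. Because the count depends on which ORFs passed the filter, it describes those ORFs and not all 207. The median was 5.81 over the 63 in-frame ORFs tested and 5.50 over the 102 out-of-frame ones.

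The 4 tested ORFs that missed the threshold were 3 of ND6 and 1 of ND5, and they are named here because they are so few. The ND6 start ORF had a log2 ratio of 1.81 (SE 0.890, edgeR adjusted p = 0.115). It passed the threshold without the serum-starved polysome library B (3.04, adjusted p = 0.0160) and without the log phase polysome library B (2.44, adjusted p = 0.0303). The other ND6 ORFs (14168 to 14224 and 14217 to 14264) were at 1.14 and 1.26. The ND5 ORF (12754 to 12768, CTG, 15 nt) had 1749 footprints and was at 0.63 (SE 0.547, edgeR adjusted p = 0.366). With the replicate block all 181 ORFs tested were called higher (background 22.5%), with edgeR adjusted p of 5.56e-05 for the ND6 start ORF (log2 2.01), 0.0189 and 0.00847 for the other ND6 ORFs and 0.0279 for the ND5 ORF. Without the block 6 of the 9 ND6 ORFs tested were higher in monosomes, and the median of the 9 was 1.81.

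ORFs in tRNA genes held 0.184 to 2.95% of the mitochondrial footprints in monosome and 1.10 to 5.39% in polysome libraries. TRNS2, the gene of a serine tRNA, held most of them, in 2 ORFs that overlap in different frames (12211 to 12249 and 12219 to 12230, both AAG). They held 0.0141 and 0.0615% of all footprints in serum-starved, 0.0344 and 0.117% in amino acid-starved and 0.0152 and 0.0812% in log phase monosome libraries A and B. In polysomes they held 0.00112 and 0.00575%, 0.00224 and 0.0156%, and 0.000661 and 0.00976%. Here too library B was above library A in all 6 groups. The log2 ratios were 3.36 (SE 0.658) and 3.65 (SE 0.650, edgeR adjusted p = 8.24e-04).

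The ORF of TRNV (valine tRNA, 1621 to 1641) had 216.1 of its 357.8 footprints in 1 library, serum-starved monosomes B, with a log2 ratio of 6.09 (SE 1.06). The 2 ORFs of TRNF (phenylalanine tRNA) were at 3.85 and 3.71. Of the 20 tRNA gene ORFs 15 were tested, and all 15 were higher in monosomes (edgeR, adjusted p under 0.05, background 16.7%), with a median of 4.32. This count describes the ORFs that passed the filter on low counts and not all 20. Here too an ORF could pass through monosome libraries alone. The other tRNA genes with an ORF were TRNH, TRNI, TRNK, TRNL1, TRNL2, TRNM, TRNN, TRNP, TRNT and TRNY, with at most 173.8 footprints each over all libraries. The ORF in the overlap of ATP8 and ATP6 had 364.2 footprints and a log2 ratio of 8.26 (SE 0.826). Of these footprints 193.8 were in 1 library, serum-starved monosomes A. Each polysome library held only 0.5 to 1.6, so the size of this ratio is uncertain.

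Nuclear genes for the same complexes and for organelle translation were counted in 5 lists. The lists were drawn up with results of these data known and are given as counts in the contrast over the 3 conditions, where 18.2% of features were higher and 21.2% lower in monosomes. Of 30 tested nuclear complex I subunits, 6 were higher and 11 lower (median -0.29), among them NDUFV3 (2.03), NDUFA3 (2.08) and NDUFS4 (-1.68). Of 8 complex III subunits 3 were higher and 3 lower (median -0.06), with UQCRQ at 4.03, CYC1, which carries the cytochrome c1 heme, at -1.87, and UQCRFS1, the Rieske iron-sulfur protein, at -1.83. Of 7 complex IV subunits 0 were higher and 1 was lower (median -0.57), COX7B at -1.38. Of 14 ATP synthase subunits 3 were higher and 5 lower (median -0.87). The ones with the smallest p were the short subunits ATP5F1E (5.53), ATP5ME (3.40) and ATP5MK (3.11).

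Factors of mitochondrial translation and mRNA stability gave 5 higher and 3 lower of 20 tested (median -0.24). COX14, which takes part in COX1 synthesis and complex IV assembly, was at 4.15 (SE 0.336, edgeR adjusted p = 1.22e-06). MTRF1L, a mitochondrial release factor, was at 1.34, and NGRN, which binds the mitochondrial large ribosomal RNA, at 1.49. The highest value over these 5 nuclear lists, 5.53, lay below the median of the 13 mitochondrial genes.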

How the data were processed

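Ribosome footprints of 17 to 34 nt were sequenced in 12 libraries (14 PCR cycles, 75 nt reads, per the labels' protocols). The authors deposited expected counts per ORF and library from the ORF caller PRICE, named in the table's title, and a p-value per ORF. That deposited p-value was used only to describe ORFs. The submitters' processing notes name Bowtie 1.0 and hg38 without their roles. How reads that also match nuclear copies of mitochondrial DNA were treated is not given in the sources used here.

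The deposited positions were turned into 1-based ones and placed in RefSeq genes of GRCh38.p14. Strands of the mitochondrial genes are textbook ones. Where ORFs shared codons, those typed CDS, Trunc or Variant (coding) took precedence over other types, then those with higher totals. Overlapping ORFs in different frames were both kept, and the caller divided their footprints. A gene's ORFs were summed. Another 6374 features were nuclear genes with coding ORFs, 5894 of them named through 1 RefSeq gene at their position. Counts were rounded, filtered with filterByExpr (minimum count 10, minimum total 15), TMM-scaled and tested with edgeR 4.0.16 (R 4.3.3) over 6 groups, without a replicate term, in 10 contrasts. Tests were two-sided, and adjusted p under 0.05 counted as called. The fit was tested on simulated data. PCR reads without molecular identifiers are not independent molecules, so counts carry counting error at least.

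The letters A and B served as replicate numbers for an alternative fit with a replicate block, though no label ties them to replicates. The B minus A deviations of the groups correlated over features with r of 0.774 to 0.869 between polysome groups. Between pairs of groups that included a monosome group, r was 0.165 to 0.417. The members, lists and tests were chosen with earlier results of these data known, and the permutation test of the ND6 share is for that reason not reported. All 13 protein genes, every tRNA gene with an ORF, the ORF with the most footprints in each protein gene, up to 5 tRNA ORFs and, of each nuclear list, up to 3 members of smallest p were named. The ends of ORFs were not checked against stop codons, as no mitochondrial sequence was used here. Alternatives were DESeq2 1.42.0, other scalings, filters and denominators, a replicate block, compared groups alone, overlapping ORFs included, strand ignored, in-frame ORFs alone, and each library left out.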

Additional observations from a re-analysis of the deposited data

How the results depend on the processing

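No call turned its direction under any alternative tried. All 6 starvation comparisons stayed at 0 of the 13 genes under DESeq2, the other scalings and filters, the replicate block, compared groups alone, other ORF sets, and with any library left out. The count over the 3 conditions was 12 to 13 with a library left out, 11 to 12 within serum starvation, 8 to 12 within amino acid starvation and 11 to 12 within log phase, with the 8 found without polysome library A and 9 without polysome library B. The number of mitochondrial ORFs called also moved with the library left out. A filter of 50 counts in 2 libraries tests fewer ORFs, and 113 of the 115 mitochondrial ORFs that it left were called. The share of all ORFs called under that filter is not given here, and it was 16.7% in the main fit. Mitochondrial footprints relative to coding footprints averaged 21.1% in monosome and 0.324% in polysome libraries. That denominator is smaller by construction and leaves out most mitochondrial ORFs, so these values are not shares of a whole.

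With the replicate block 13 genes were called in each condition and over the 3, and 181 ORFs, and no other call on a mitochondrial gene or ORF changed. With a library left out, the difference of the mean ND6 shares of mitochondrial footprints, monosome minus polysome (-7.28 points), ran from -8.38 to -4.90 points. Depth limits the polysome values of short genes, ND3 having 7.2 footprints in 1 library.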
